A study of Mus musculus with 6 samples.

Results

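The genes that encode the main liver apolipoproteins, together with the gene for the protein that loads lipid onto apolipoprotein B, were examined in the liver of DUhTP (marathon) mice versus unselected DUC controls. The 10 genes were Apoa1, Apoa2, Apoa4, Apoa5, Apob, Apoc1, Apoc3, Apoe, Apom and Mttp. Every probe set whose only gene symbol in the array annotation was 1 of these was taken, which gave 16 probe sets of the 22626 tested, and 10 of the 12393 genes with a probe set of their own. Apoa1 has 4 of these probe sets, Apoa4, Apom and Mttp have 2 each, and the other 6 genes have 1 each.

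DUhTP is a mouse line bred over many generations for high treadmill performance, and DUC is its unselected control line. Both descend from a crossbred population of outbred and inbred founders and are kept without inbreeding, so animals within a line differ genetically. The mice were 70 days old, and the study's methods give them as male. Liver RNA was measured on Affymetrix Mouse Genome 430A 2.0 arrays, 3 per line and 6 in all. The methods describe the arrays of a line as pools of mice, whereas each label speaks of a single mouse. The array was therefore the replicate, whichever of these holds. Every SD describes the spread between arrays, and every p rests on that spread together with the spread expected from all probe sets. No treatment separates the lines, and each is a single population, so selection for running cannot be told apart from any other genetic difference between them. Intensities are PLIER estimates on a linear scale in arbitrary units. An intensity depends on the probes, so the levels of different probe sets are not set against each other as amounts of mRNA. A negative fold change (FC), and a negative log2 FC, means lower abundance in DUhTP mice.

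Apolipoproteins are the proteins on the surface of lipoprotein particles, which carry triglyceride and cholesterol through the blood. In the liver, MTTP transfers lipid onto newly made apolipoprotein B to form very low density lipoprotein (VLDL), while apolipoprotein A-I and A-II are the major proteins of high density lipoprotein (HDL). The small exchangeable apolipoproteins move between particles and set how fast lipases and receptors clear them, and several of these genes lie side by side in clusters.

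The medians of the arrays were close to each other, and log2 intensities of arrays of the same line correlated at 0.959 or more. The livers carried hepatocyte markers at high intensity, with a summed intensity over 8 genes of 79250 to 80709 in DUhTP mice against 83185 to 87737 in DUC mice. These markers did not move together. Tat (log2 FC -0.88), Cps1 (-0.33) and Fgb (-0.19) were lower in every DUhTP array than in any DUC array. Serpinc1 (0.12) and Ttr (0.07) were higher in every DUhTP array, and Alb, Ahsg and Hpx overlapped. Markers of exocrine pancreas were uneven: their sum over 11 genes was 4713, 1051 and 2978 in DUhTP mice against 5565, 10880.0 and 8160.0 in DUC mice. The summed intensity of 11 macrophage and Kupffer cell markers was 4248 to 4932 in DUhTP mice against 2688 to 3379 in DUC mice. Within that list 8 genes were higher without overlap, while Cd163 (log2 FC -0.93) and Marco (-0.60) were lower without overlap. The shares over all probe sets were 13.6% higher and 15.8% lower. The sum of 4 erythroid and blood markers was 1308 to 1696 in DUhTP mice against 797 to 882 in DUC mice. Most of it came from Alas2, which read 1558, 1187 and 1203 in DUhTP mice against 715, 763 and 650 in DUC mice. The lines overlapped for Hba-a1, Slc4a1 and Ptprc (log2 FC -0.08, 0.19 and -0.12). The sums of 5 biliary and of 8 stellate cell markers overlapped between the lines. Within the stellate list, Col3a1 passed as higher on its brightest probe set (log2 FC 0.93, adjusted p = 0.0434 in limma). Its other probe set, 1427884_at, overlapped (0.32). Acta2 (0.40) and Pdgfrb (0.37) were also higher without overlap, and the other stellate genes, Dcn (-0.13) among them, overlapped. The sum of 7 sinusoidal endothelial markers was 2798 to 3113 in DUhTP mice and 2510 to 2672 in DUC mice. Stab2 (log2 FC 0.48) and Cdh5 (0.33) were higher without overlap. The others overlapped, with Lyve1 (-0.55) and Tek (-0.08) below 0. The part of these other cells in the results was not tested, and in whole liver fewer cells of a type and less RNA per cell cannot be told apart.

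Of the 16 probe sets, 1 differed at an adjusted p under 0.05 in limma, a probe set of Apoa4 that was lower in DUhTP mice. Over all probe sets 2.41% passed this test in either direction, with 1.05% lower and 1.36% higher. With 1 value a gene, taken from the brightest probe set (the highest mean over the 6 arrays), 0 of the 10 genes passed, against 2.7% of all genes. At an unadjusted p under 0.05, 3 of the 10 genes were lower (Apoa4, Mttp and Apoa5) and 0 higher, where 11% of all genes were lower. With limma-trend, which lets the expected spread depend on the intensity, the same 3 genes passed the adjusted threshold, all lower, where 11.3% of all genes passed in either direction and 5.75% as lower. Of the probe sets, 4 of 16 then passed, where 10.4% of all probe sets did and 5.67% as lower. With 16 added to every intensity before the log, 1 of the genes passed (Apoa4, against 8.97% of all genes), on 2 of the 16 probe sets (against 8.62% of all probe sets, and 4.7% as lower). The median log2 FC of the 10 genes was -0.01, and that of all genes was 0.00.

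**Figure D1:**
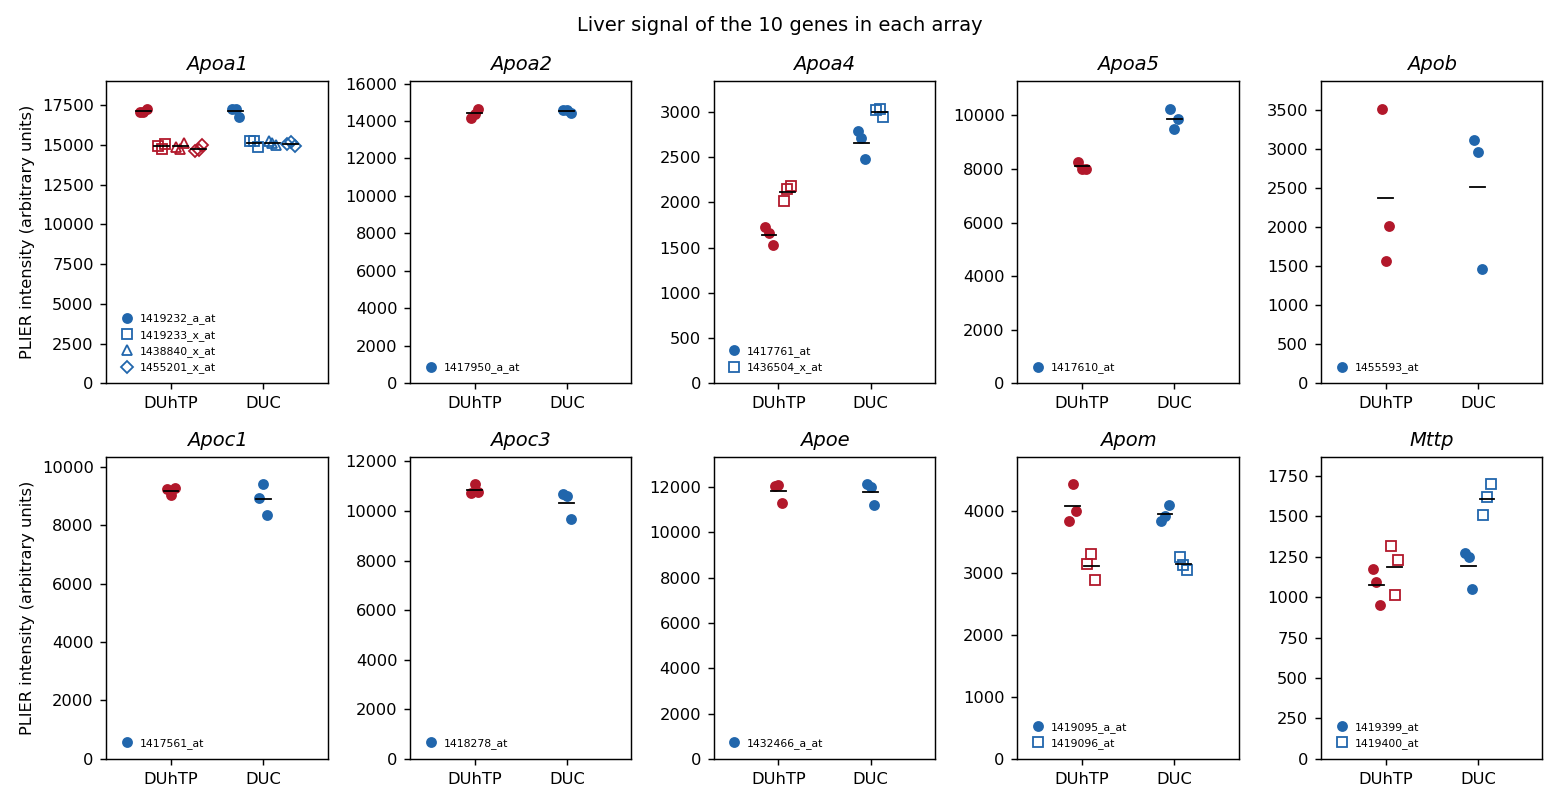
Each panel shows 1 gene, with the PLIER intensity of each array in arbitrary units on an axis that starts at 0, DUhTP arrays in red on the left and DUC arrays in blue on the right, a symbol for each probe set and a black bar at the mean of 3 arrays. Both probe sets of Apoa4 and the probe set of Apoa5 lie lower in all DUhTP arrays than in any DUC array, 1 of the 2 probe sets of Mttp does, and Apob is scattered within both lines.

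Apoa4 encodes apolipoprotein A-IV, an exchangeable protein of HDL and triglyceride-rich particles that is made in the intestine and, in mice, also in the liver. Its probe set 1417761_at read 1724, 1658 and 1525 in DUhTP mice against 2784, 2712 and 2477 in DUC mice. Every DUhTP array was below every DUC array, and the highest array of a line was 1.13 times the lowest in DUhTP mice and 1.12 times in DUC mice. DUhTP arrays averaged 1636 ± 101 and DUC arrays 2658 ± 160 (SD, n = 3 each). This is an FC of -1.62, a log2 FC of -0.70 with an SE of 0.11 (95% interval -0.98 to -0.43; adjusted p = 0.0432 in limma).

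The second probe set, 1436504_x_at, is the brighter of the pair but is of a type that can also hybridize with related sequences. It read 2015, 2149 and 2183 in DUhTP mice against 3025, 3037 and 2946 in DUC mice, again without overlap. Its log2 FC was -0.51 with an SE of 0.10 (FC -1.42, adjusted p = 0.0647), so it had the same direction and missed the threshold. With 16 added it passed (adjusted p = 0.0171), and with limma-trend as well (adjusted p = 0.00156). The adjusted p of 1417761_at in these settings was 0.00507 and 0.000511.

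The call of 1417761_at did not survive the loss of any single array in the main setting, where the adjusted p was between 0.0930 and 0.158 and the log2 FC between -0.75 and -0.65. With 16 added it passed without any 1 array (adjusted p 0.0104 to 0.0315), and likewise with limma-trend (0.000823 to 0.00549), 2 combinations chosen after seeing the data. Apoa4 mRNA is abundant in intestine, and the 6 enterocyte markers did not all move together. Fabp2 (log2 FC -0.40), Lgals4 (-0.74) and Cdx1 (-1.63, at an intensity of 7.98 or less) were lower without overlap. Cdx2 (-0.13), Anpep (-0.10) and Vil1 (0.85) overlapped between the lines. Over all probe sets 15.8% were lower without overlap and 13.6% higher. The summed intensity of the 6 markers was 1203 to 1348 in DUhTP mice against 1609 to 1648 in DUC mice. Most of it came from Fabp2, which read 921, 839 and 1128 in DUhTP mice against 1320.5, 1247 and 1221 in DUC mice. The defining transcription factors Cdx1 and Cdx2 and the brush border protein gene Vil1 stayed at an intensity of 25.6 or less in every array. Lgals4, a galectin gene of the intestinal lining, read 42.3, 50.9 and 39.3 in DUhTP mice against 69.1, 83.6 and 68.9 in DUC mice. It was lower without overlap (log2 FC -0.74, adjusted p = 0.0688, and 0.0223 with limma-trend and 0.0194 with 16 added). The aminopeptidase gene Anpep read 307, 281 and 146 in DUhTP mice against 195, 246 and 321 in DUC mice, with overlap. The sum of the pancreas markers was also lower in every DUhTP array (4713, 1051 and 2978) than in any DUC array (5565, 10880.0 and 8160.0). The part of RNA from intestine or pancreas in the Apoa4 difference was not tested.

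Apoa5 encodes apolipoprotein A-V, a liver protein that promotes the removal of plasma triglyceride by lipoprotein lipase. Its probe set 1417610_at read 8271, 8016 and 7994 in DUhTP mice against 10256, 9478 and 9862 in DUC mice. The lines did not overlap, and the gap between them (8271 against 9478) was wider than the range within either. DUhTP arrays averaged 8094 ± 154 and DUC arrays 9865 ± 389 (SD, n = 3 each), an FC of -1.22. The log2 FC was -0.28 with an SE of 0.10 (95% interval -0.53 to -0.04), which did not pass (adjusted p = 0.184). It passed with limma-trend (adjusted p = 0.0174) but not with 16 added (0.124), and with limma-trend it was lost without DUC 1 (0.0856) or without DUC 3 (0.0578).

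Mttp encodes the microsomal triglyceride transfer protein, which is needed for VLDL to be assembled and secreted. Its brighter probe set, 1419400_at, read 1315, 1017 and 1227 in DUhTP mice against 1509.8, 1619 and 1699 in DUC mice. All DUhTP arrays were lower, with a log2 FC of -0.45 and an SE of 0.14 (FC -1.36, adjusted p = 0.151). The probe set passed with limma-trend (adjusted p = 0.0236), and there it was lost without any 1 of the DUC arrays (0.0537 to 0.0987). The other probe set, 1419399_at, read 1177, 1094 and 953 in DUhTP mice against 1275, 1249 and 1050.3 in DUC mice, and here the lines overlapped (log2 FC -0.15, 95% interval -0.49 to 0.20, adjusted p = 0.594). The probe sets of Mttp thus gave the same sign and different sizes, and the difference between them was not tested.

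**Figure D2:**
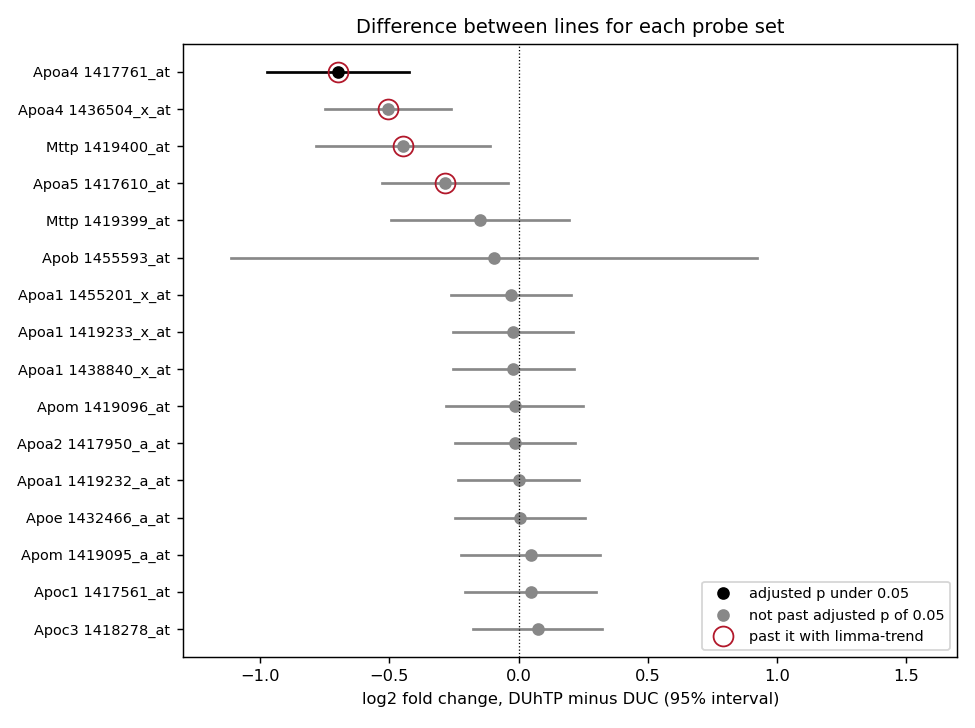
The log2 FC of each of the 16 probe sets, DUhTP minus DUC, with its 95% interval from limma on the horizontal axis. Apoa4 1417761_at (black) was the probe set past an adjusted p of 0.05, the 4 probe sets ringed in red passed with limma-trend, and the interval of Apob was the widest.

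Apob encodes apolipoprotein B, the structural protein of VLDL, of which each particle carries a single copy. Its probe set 1455593_at read 3523, 1573 and 2011 in DUhTP mice against 3115, 2968 and 1470.0 in DUC mice. High and low arrays occurred in both lines, and the highest array was 2.24 times the lowest in DUhTP mice and 2.12 times in DUC mice. The log2 FC was -0.10 with an SE of 0.42, and its 95% interval of -1.12 to 0.93 includes a change of 2-fold in the lower direction (adjusted p = 0.923). The sign turned without DUhTP 2 (0.16), without DUC 1 (0.10), without DUC 2 (0.06) and with array weights (0.08), so these arrays give no direction for Apob. The intensity of the β-actin 3′ control over its 5′ control, a measure of RNA integrity and labelling, was 1.52, 1.60 and 1.82 in DUhTP mice against 1.73, 1.74 and 2.27 in DUC mice. DUC 3 had the highest ratio and the lowest Apob, while DUhTP 2, with the next lowest Apob, had a lower ratio than any DUC array, and the part of RNA integrity was not tested.

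The 7 probe sets of Apoa1, Apoa2 and Apom, which encode proteins of HDL, had log2 FCs between -0.03 and 0.05, and 0 of them passed. Apoa1 encodes apolipoprotein A-I, the main protein of HDL and the activator of the enzyme that esterifies plasma cholesterol. Its brightest probe set, 1419232_a_at, read 17089, 17065 and 17249 in DUhTP mice against 17301, 17289.9 and 16787 in DUC mice. The lines overlapped and the log2 FC was 0.00 (95% interval -0.23 to 0.23, adjusted p = 0.997). The other 3 probe sets of Apoa1 lay between 14638 and 15107 in DUhTP mice and between 14899 and 15281 in DUC mice, with log2 FCs of -0.03 to -0.02. Apoa2 encodes apolipoprotein A-II, the other major HDL protein, and its probe set 1417950_a_at read 14137, 14399 and 14666 in DUhTP mice against 14599.7, 14602 and 14413 in DUC mice (log2 FC -0.01, adjusted p = 0.953). Apom encodes a minor HDL protein that carries the lipid mediator sphingosine 1-phosphate. Its probe set 1419095_a_at read 3831, 4433 and 3999 in DUhTP mice against 3843, 3914 and 4101 in DUC mice (log2 FC 0.05, adjusted p = 0.851). Its probe set 1419096_at read 3146, 3315 and 2892 in DUhTP mice against 3256, 3134 and 3053 in DUC mice (log2 FC -0.02, adjusted p = 0.954). The arrays of the lines overlapped for Apoa2 and for both probe sets of Apom.

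The probe sets of Apoa1 and Apoa2 were ranked 1, 3, 4, 5 and 6 from the brightest of all probe sets, and Apoa1 1419232_a_at was the brightest on every array. Whether signals this high still follow the amount of mRNA was not tested. The 95% intervals of these 5 probe sets reached no further than -0.26 and 0.23 on the log2 scale. Their SE of 0.10 is set largely by the spread that limma expects over all probe sets (an SD of 0.20 on the log2 scale), since the SD of their own 3 arrays was 0.03 or less in each line.

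The remaining exchangeable apolipoproteins, those of triglyceride-rich particles, had log2 FCs between 0.00 and 0.07. Apoc3 encodes apolipoprotein C-III, which slows the lipolysis and uptake of these particles. Its probe set 1418278_at read 10739.8, 11081 and 10768 in DUhTP mice against 10696, 10593 and 9693 in DUC mice. The lines did not overlap, although DUhTP 1 and DUC 1 were close, and the log2 FC was 0.07 with an SE of 0.10 (adjusted p = 0.731). Apoc1 encodes apolipoprotein C-I, an inhibitor of the cholesteryl ester transfer protein in species that have it, and its probe set 1417561_at read 9242, 9029 and 9258 in DUhTP mice against 8925, 9402 and 8355 in DUC mice (log2 FC 0.05, adjusted p = 0.840). Apoe encodes apolipoprotein E, the ligand through which liver receptors take up remnant particles. Its probe set 1432466_a_at read 12067, 12081 and 11301 in DUhTP mice against 12128, 12024 and 11199 in DUC mice (log2 FC 0.00, 95% interval -0.25 to 0.26, adjusted p = 0.988). The lines overlapped for Apoc1 and Apoe.

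Over the 16 probe sets, 5 had no overlap between the lines, 4 of them lower (both of Apoa4, Apoa5 and Mttp 1419400_at) and 1 higher (Apoc3). Over all probe sets 15.8% had no overlap in the lower direction and 13.6% in the higher. Among the 1573 probe sets with a mean intensity over 1000, to which all 16 belong, 27.4% had no overlap in the lower direction and 24.9% in the higher, and 14.9% were lower with limma-trend. The 4 of 16 without overlap in the lower direction are thus near the share of bright probe sets. The same 4 of 16 were lower with limma-trend, of which 2 belong to Apoa4, and whether this exceeds the share of bright probe sets was not tested.

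Apoa4 and Apoa5 lie in the same cluster as Apoa1 and Apoc3, on chromosome 9. In the mouse annotation of RefSeq (GRCm38.p6) Apoa1 takes chr9:46228630-46230469, Apoc3 chr9:46233050-46235636, Apoa4 chr9:46240844-46243458 and Apoa5 chr9:46268608-46271921. The brightest probe sets of Apoa1 and Apoc3 had log2 FCs of 0.00 and 0.07, and those of Apoa4 and Apoa5, which start 12.2 and 40.0 kb from the start of Apoa1, had -0.51 and -0.28. The next genes on the array, Zpr1 and Bud13, had -0.27 (adjusted p = 0.433) and -0.16 (adjusted p = 0.490) with overlap between the lines. The differences between the genes of the cluster were not tested. The array annotation states no genome build for its probes, so positions are those of the genes, matched by gene ID for all 10.

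The other cluster, on chromosome 7, holds Apoe (chr7:19696244-19701310) and Apoc1 (chr7:19689480-19692659) beside Apoc4 and Apoc2. The apolipoprotein genes there had log2 FCs between 0.00 and 0.07, with overlap between the lines. Tomm40, which starts 5.07 kb from the start of Apoe, had a log2 FC of -0.67 without overlap (adjusted p = 0.0991, and 0.0153 with limma-trend). Nectin2, the next gene, had -0.42 without overlap (adjusted p = 0.183, and 0.0724 with limma-trend). Clptm1, on the other side of the cluster, had -0.14 with overlap. The remaining genes lie apart, Apoa2 at chr1:171221564-171226379, Mttp at chr3:138089855-138143418, Apob at chr12:7977629-8016839 and Apom at chr17:35128997-35131801.

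**Figure D3:**
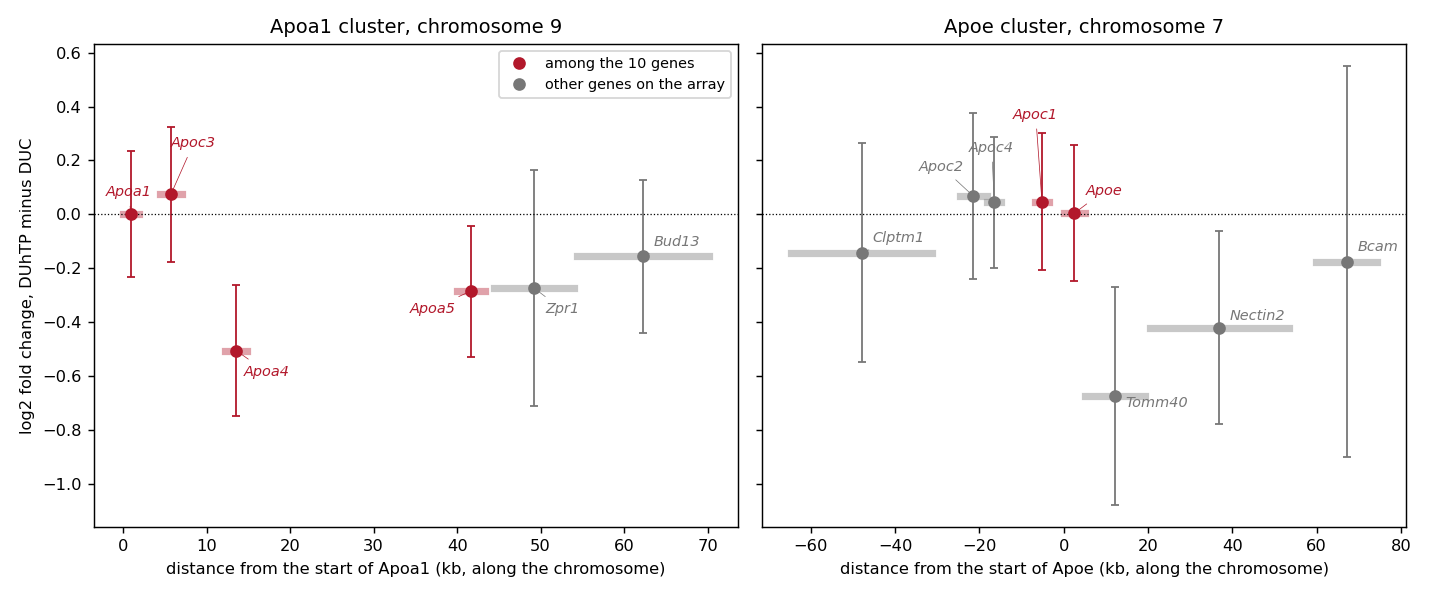
The log2 FC, DUhTP minus DUC, of the brightest probe set of each gene against the distance along the chromosome from the start of Apoa1 (left) or Apoe (right), with 95% intervals as vertical lines and the extent of each gene as a thick bar. In the Apoa1 cluster Apoa1 and Apoc3 sit at 0.00 and 0.07 while Apoa4 and Apoa5 sit at -0.51 and -0.28, and in the Apoe cluster the apolipoprotein genes sit between 0.00 and 0.07.

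The sequences before the starts of Apoa4 and Apoa5, the members of the chromosome 9 cluster whose DUhTP arrays all read below the DUC arrays, are shown with that of their neighbour Apoa1, whose arrays overlapped. They are the 250 bases before each start from RefSeq, GRCm38.p6, plus strand, in lower case, and capitals mark a match to a spelling of the site of HNF4, the nuclear receptor known for driving these genes in liver.
Apoa4 (chr9:46240594-46240843): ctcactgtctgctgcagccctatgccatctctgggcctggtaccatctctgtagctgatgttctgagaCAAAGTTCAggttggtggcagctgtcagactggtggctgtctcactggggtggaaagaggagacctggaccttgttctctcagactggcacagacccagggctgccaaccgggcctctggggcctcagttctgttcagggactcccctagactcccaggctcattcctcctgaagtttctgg
Apoa5 (chr9:46268358-46268607): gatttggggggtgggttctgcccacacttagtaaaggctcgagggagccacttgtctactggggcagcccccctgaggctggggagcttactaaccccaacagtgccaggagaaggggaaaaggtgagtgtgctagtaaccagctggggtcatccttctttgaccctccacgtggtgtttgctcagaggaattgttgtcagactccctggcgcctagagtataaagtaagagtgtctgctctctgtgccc
Apoa1 (chr9:46228380-46228629): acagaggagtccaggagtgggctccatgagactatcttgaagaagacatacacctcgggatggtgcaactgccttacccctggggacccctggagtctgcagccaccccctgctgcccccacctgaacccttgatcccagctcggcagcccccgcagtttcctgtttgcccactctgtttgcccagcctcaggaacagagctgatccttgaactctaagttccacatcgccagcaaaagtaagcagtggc
The Apoa4 sequence holds CAAAGTTCA on the plus strand at positions -182 to -174 before the start. The spellings searched were CAAAGTCCA, CAAAGTTCA and CAAAGGTCA, on both strands, and they were chosen with these promoters in view. Over the same 250 bases of the 32851 mouse promoters in the table, 0.335% hold CAAAGTTCA and 1.14% hold any of the 3. The table holds promoters of 8 of the 10 genes, and none of the other 7 has 1 of the 3 spellings. The basal TATAAA, which 12.4% of promoters hold, stands in the Apoa5 sequence at positions -31 to -26 and in neither of the others shown. The sterol regulatory element spelled TCACNCCAC, held by 1.05% of promoters, was found in 0 of the 8. A match is a description of the letters in this window and not a site of binding. A window without these 3 exact spellings may still hold a variant of the HNF4 site, and variants were not searched.

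Hnf4a itself had 4 probe sets, and the brightest, 1427001_s_at, read 2966, 3093 and 3284 in DUhTP mice against 3859, 4222 and 4356 in DUC mice. Its lines did not overlap (log2 FC -0.41, SE 0.11, adjusted p = 0.116). The adjusted p was 0.00782 with limma-trend and 0.0467 with 16 added. All 4 probe sets of Hnf4a had negative log2 FCs, between -0.66 and -0.41. Among 21 listed transcriptional regulators of apolipoprotein genes on the array, 2 passed as higher and 2 as lower, where 1.64% of all genes passed as higher and 1.06% as lower. Srebf1, whose product SREBP-1 drives genes of fatty acid synthesis, read 662, 450.1 and 464 in DUhTP mice against 158, 164 and 202 in DUC mice (FC 2.98, adjusted p = 0.0263). Nr0b2, which encodes the corepressor SHP, a partner that represses HNF4 and other nuclear receptors, read 768, 679 and 766 in DUhTP mice against 219, 349 and 299 in DUC mice (FC 2.60, adjusted p = 0.0325). Lower were the coactivator genes Ppargc1b (FC -2.36, adjusted p = 0.0263) and Ppargc1a (log2 FC -1.19, adjusted p = 0.0499, at an intensity of 22.4 or less in DUhTP mice). With 16 added the log2 FC of Ppargc1a was -0.76 (adjusted p = 0.00737). The nuclear receptor gene Rora had a log2 FC of -0.53 and did not pass (adjusted p = 0.187).

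Of 12 other apolipoprotein and HDL-associated genes, 2 passed, against 2.7% of all genes, both higher in DUhTP mice and both serum amyloid A genes, which encode small acute-phase apolipoproteins of HDL. Saa1, on 1419075_s_at, read 1845, 1611 and 1664 in DUhTP mice against 768, 968 and 704 in DUC mice, without overlap (FC 2.11, log2 FC 1.08, SE 0.15, adjusted p = 0.0331). Saa2, on 1449326_x_at, read 588, 579.8 and 512 in DUhTP mice against 294, 341 and 249 in DUC mice (FC 1.91, adjusted p = 0.0448). Both of these probe sets are of types that can hybridize with more than 1 transcript, and Saa1 and Saa2 are near-identical, so their signals cannot be told apart with certainty and the 2 calls may be 1. The other probe set of Saa1, 1450788_at, had a log2 FC of 1.05 (adjusted p = 0.0426). Saa4, the constitutive member, had a log2 FC of 0.56 (adjusted p = 0.132, and 0.0142 with limma-trend), and Apon had 0.16 (adjusted p = 0.404). Saa3, on 1450826_a_at, had a log2 FC of -0.11 with overlap between the lines (adjusted p = 0.739 in limma). The macrophage marker sum was also higher in DUhTP mice, although Cd163 and Marco were lower, and the part of macrophages in these values was not tested. The median log2 FC of the 12 genes was 0.14.

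Of 21 partners of VLDL assembly and secretion on the array, 0 passed in limma and 5 had an unadjusted p under 0.05 (2 higher and 3 lower). With limma-trend 4 passed (2 higher and 2 lower), and with 16 added 2 passed, both lower. Of all genes, 2.7% passed in limma, 21.8% had an unadjusted p under 0.05, 11.3% passed with limma-trend and 8.97% with 16 added. Sec23a, which encodes a coat protein of the vesicles that leave the endoplasmic reticulum, read 736, 502 and 689 in DUhTP mice against 1041, 1006 and 1055 in DUC mice (FC -1.63, adjusted p = 0.0957, and 0.00793 with limma-trend). Pla2g12b, which encodes a catalytically inactive phospholipase needed in mice for full lipid loading of VLDL, had a log2 FC of 0.36 (adjusted p = 0.156). Its lines did not overlap, and its adjusted p was 0.0289 with limma-trend and 0.0820 with 16 added. The median log2 FC of the 21 genes was 0.07, with values from -0.71 to 0.59.

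Of 10 genes of plasma lipolysis and remodelling, 1 passed, against 2.7% of all genes. With limma-trend 3 passed (2 higher and 1 lower), against 11.3% of all genes. With 16 added 3 passed (2 higher and 1 lower), against 8.97%. Lpl, the gene for lipoprotein lipase, which adult liver expresses at a low level, read 73.8, 114 and 116 in DUhTP mice against 412, 314 and 330.0 in DUC mice. The lines were far apart, and the log2 FC was -1.81 with an SE of 0.22 (FC -3.52, adjusted p = 0.0257). A second probe set of Lpl, 1431056_a_at, had a log2 FC of -1.28 (adjusted p = 0.0408). Angptl8, which encodes an inhibitor of lipoprotein lipase, had a log2 FC of 1.01 (adjusted p = 0.144), and Lmf1, which encodes a maturation factor of the lipase, had 0.60 (adjusted p = 0.113). The adjusted p of Angptl8 was 0.0259 with limma-trend and 0.0373 with 16 added, and that of Lmf1 was 0.0234 and 0.0338. With limma-trend and 1 array left out, a combination chosen after seeing the data, Angptl8 passed in 1 of 6 fits and Lmf1 in 2. The products of Apoa5, Apoc3 and Lpl act on the same step, the hydrolysis of plasma triglyceride. In liver the log2 FCs of these genes stood at -0.28, 0.07 and -1.81, and whether plasma lipolysis differed was not tested.

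Of 11 receptor and uptake genes, 0 passed in limma, 4 had an unadjusted p under 0.05 (3 higher and 1 lower), 1 passed with limma-trend and 0 with 16 added, where the shares of all genes were 2.7%, 21.8%, 11.3% and 8.97%. Scarb1, which encodes the HDL receptor SR-BI, read 1293, 1301 and 1001 in DUhTP mice against 1667, 1556 and 1679 in DUC mice (log2 FC -0.46, adjusted p = 0.155, and 0.0245 with limma-trend). Lsr, the gene for the lipolysis-stimulated lipoprotein receptor, had a log2 FC of 0.38 (adjusted p = 0.227). Over the 5 lists together 7 of 75 genes passed, 4 higher and 3 lower, against 2.7% of all genes, and their median log2 FC was 0.04. Without any 1 array Lpl and Ppargc1b kept their call in 1 of 6 fits each and the other 5 genes in 0, while with 16 added, a combination chosen after seeing the data, all 7 kept it in 6 of 6. With limma-trend, likewise combined after seeing the data, 6 of the 7 kept it in 6 of 6 and Ppargc1a in 5 of 6, with an adjusted p of 0.0632 without DUC 2.

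**Figure D4:**
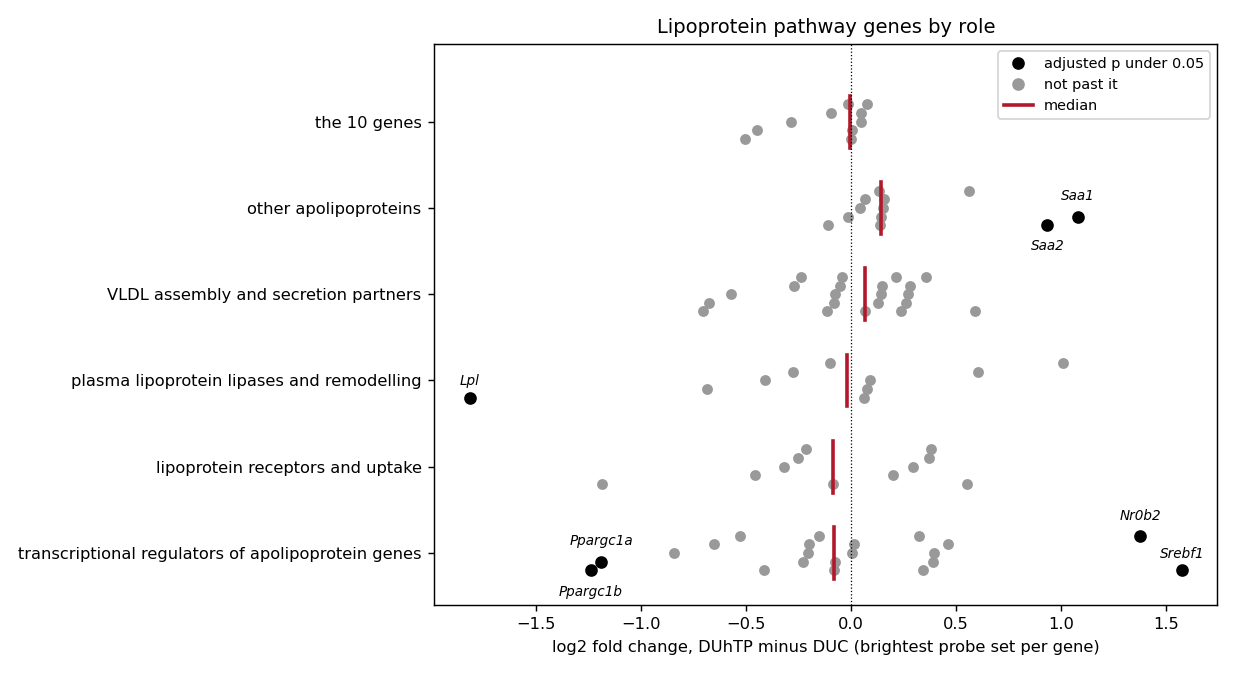
Each point is 1 gene on its brightest probe set, placed by its log2 FC, DUhTP minus DUC, on the horizontal axis and by its list on the vertical axis, with genes past an adjusted p of 0.05 in black and named and a red bar at the median of each list. The 10 genes at the top span -0.51 to 0.07, while the regulators span -1.24 to 1.57.

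The genes whose intensity followed Apoa4 1417761_at most closely over the 6 arrays were Ctps, Ogfrl1 and Frmd4b, each with a Pearson correlation of 0.997 among 12383 genes compared. Their log2 FCs were -0.92 (adjusted p = 0.0356), -0.50 (adjusted p = 0.0704) and -0.34 (adjusted p = 0.132). The 6 points of each correlation fall into the 2 lines, so any gene with a clear difference between them scores high. Ctps, which encodes CTP synthase, read 43.5, 39.2 and 34.0 in DUhTP mice against 78.2, 74.0 and 67.6 in DUC mice.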

How the data were processed

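Liver RNA of 6 mice or pools (3 DUhTP, 3 DUC) was measured on Affymetrix Mouse Genome 430A 2.0 arrays. For the authors' processing, global scaling in GCOS 1.1.1 to a target signal of 500 came first. They then imported the arrays into Array Assist and summarized each probe set with PLIER. The deposited values are therefore intensity values on a linear scale in arbitrary units. They reach values as low as 0.30 (Cftr 1427767_a_at in DUC 2), so no constant of 16 is contained in them. Whether the authors added a constant before their own test is not given in the sources used here.

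Of 22690 probe sets, 64 controls were left out. Intensities were logged to base 2 with no constant added, and DUhTP was compared with DUC in limma 3.58.1 under R 4.3.3 (lmFit and eBayes, unpaired, as in the study's methods), with Benjamini-Hochberg adjustment over 22626 probe sets and an adjusted p under 0.05 as the threshold. A gene is represented by its brightest probe set. On simulated data with independent normal noise, the check was that the median estimate returned a planted log2 FC. Rates of calls and false calls in that simulation are not given here. The number of arrays limits the precision, and an exact permutation test of 3 against 3 arrays cannot give a p under 0.1.

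The members, the gene lists and the motif spellings were chosen with earlier results of these data known. Named were all 10 genes with every probe set, of each pathway list every gene that passed on its brightest probe set and the 2 others with the largest absolute log2 fold change at a mean intensity over 100, and the 3 genes most correlated with the member of smallest p. The neighbours of the clusters, and Saa3 among the other apolipoproteins, were added after their values were seen. The cell type marker lists cover hepatocytes, enterocytes, macrophages and Kupffer cells, biliary, stellate and sinusoidal endothelial cells, blood and exocrine pancreas.

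Alternatives were array weights, limma-trend, a fit with the replicate number as a block, quantile normalization, 16 added to all intensities, tests without the dimmest 33.3% of probe sets or without those of types that may hybridize with more than 1 transcript, any probe set of a gene in place of the brightest, and each array left out in turn. The last was also combined with 16 added and with limma-trend, after seeing the data.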

Additional observations from a re-analysis of the deposited data

How the results depend on the processing

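The count of probe sets called over the whole array was 546. It was 1951 with 16 added, 1851 without the dimmest probe sets and 2350 with limma-trend, 0 with the replicate block, and between 1 and 122 without any 1 array. The count among the 16 probe sets was 1, and was 2, 2 and 4 in the first 3 of these settings, 0 with the replicate block and 0 without any 1 array. Of the 10 genes 0 were called, 1 with 16 added, 1 without the dimmest probe sets, 3 with limma-trend, 1 without the types of probe set open to cross-hybridization and 1 when any probe set of a gene counted. The 7 pathway genes called became 13, 13 and 17 with 16 added, without the dimmest probe sets and with limma-trend, 0 with the replicate block, and 0 to 1 without any 1 array. Arrays with the same replicate number deviated from their line means with correlations of 0.0034, 0.0048 and 0.067, so the numbers were not taken as pairs, and Apoa4 1417761_at had an adjusted p of 0.147 in limma with the block.

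With 16 added and 1 array left out, the counts were 771 to 1591 for all probe sets, 1 to 2 for the 16 probe sets, 0 to 1 for the 10 genes and 7 to 12 for the pathway genes. With limma-trend and 1 array left out they were 1064 to 2131, 2 to 4, 1 to 3 and 9 to 17. These settings were chosen after seeing the data.

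Log2 FCs near 0 changed sign. Apoa1 1419232_a_at had -0.00056 with array weights and -0.014 to 0.0083 without any 1 array. Apoa1 1419233_x_at, Apoa1 1438840_x_at and Apom 1419096_at had 0.0034, 0.0052 and 0.00095 with quantile normalization. Apob 1455593_at had 0.083 with array weights and -0.44 to 0.16 without any 1 array. Without any 1 array Apoe 1432466_a_at had -0.032 to 0.036, Apom 1419095_a_at -0.014 to 0.092 and Apom 1419096_at -0.061 to 0.038. The causes were not tested. The probe sets of Apoa4, Apoa5 and Mttp were lower in DUhTP mice in every setting. The 3 arrays per line limit all of this.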
